A study of Mus musculus with 6 samples.

Results

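The genes described here are 10 immediate early and activity-induced genes, namely Egr1, Egr2, Egr3, Egr4, Arc, Npas4, Nr4a1, Nr4a2, Nr4a3 and Ier2. They were taken by symbol from a table of 33000 genes, and all 10 were found and passed the filter on low counts. Immediate early genes are transcribed soon after a stimulus and without the need for new protein, because the factors that switch them on are already present in the cell. In the cortex they respond to synaptic activity, and several are used as markers of recently active neurons. They also respond to growth factors and cytokines, and most are not restricted to neurons.

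Libraries had been prepared with the TruSeq mRNA protocol from the frontal cortex of 6 mice of the C57BL/6 strain at 3 months of age. Of these, 3 were homozygous GFAP-IL6 mice and 3 were wild-type (WT) mice. In GFAP-IL6 mice a transgene places the inflammatory cytokine IL6 under the promoter of Gfap, an astrocyte gene, so astrocytes are the intended source of the cytokine. The labels name no treatment for either group.

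Library totals were between 11591066 and 16877001 counts in WT and between 7559524 and 11072008 counts in GFAP-IL6, so every GFAP-IL6 library was the shallower. The reads counted for Il6 were 0, 2 and 0 in the WT libraries against 12, 10 and 24 with the transgene, and they do not separate the transgene from the endogenous gene. Gfap was higher in GFAP-IL6 by 2.84 ± 0.20 on the log2 scale (SE). Of the cell type markers, 0 of 8 for excitatory neurons passed the test, and their summed level was between 4917 and 6050 CPM in WT and between 5696 and 6027 CPM in GFAP-IL6 (CPM, counts per unit of 1 M of the scaled library total). The 6 markers of inhibitory neurons summed to between 952 and 997 CPM in WT and between 783 and 860 CPM in GFAP-IL6. Of these, 0 of 6 passed the test, but all 6 had a log2 fold change below 0. In edgeR's test, 5 of the 6 were lower at an unadjusted p under 0.05, against 9.37% of all genes tested. The test was passed, as higher, by 5 of 6 microglia markers and 3 of 5 endothelial markers, against 2.65% of all genes tested. WT replicate 2 had 377 CPM of striatum markers, against 167 to 217 CPM in the other libraries, and WT replicate 3 had 610 CPM of choroid plexus markers, against at most 59.2 CPM elsewhere.

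Among the 10 genes, Arc and Nr4a1 were higher in GFAP-IL6 and the other 8 did not pass the test. The level of Arc was 3.36 times that of WT (95% interval 2.39 to 4.71) and that of Nr4a1 was 2.22 times (1.85 to 2.66). A gene was called at an adjusted p under 0.05 in edgeR's quasi-likelihood test, with adjustment over the 15341 genes tested. The 2 genes called compare with 2.86% of all genes tested that were called in either direction and 2.65% that were called as higher. Both also exceeded an absolute log2 fold change of 1, as did 1.38% of all genes tested. Of the 10 genes, 9 had a log2 fold change above 0, against 49.4% of all genes tested, and their median was 0.24, against -0.00 over all genes tested. This count depended on WT replicate 2. Without that library, Egr2 (-0.0089), Egr4 (-0.11), Nr4a2 (-0.18) and Nr4a3 (-0.044) were below 0 and the others above it. In tissue RNA of this kind, a change in the number of cells of a type and a change in the RNA of each cell cannot be told apart.

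**Figure D1:**
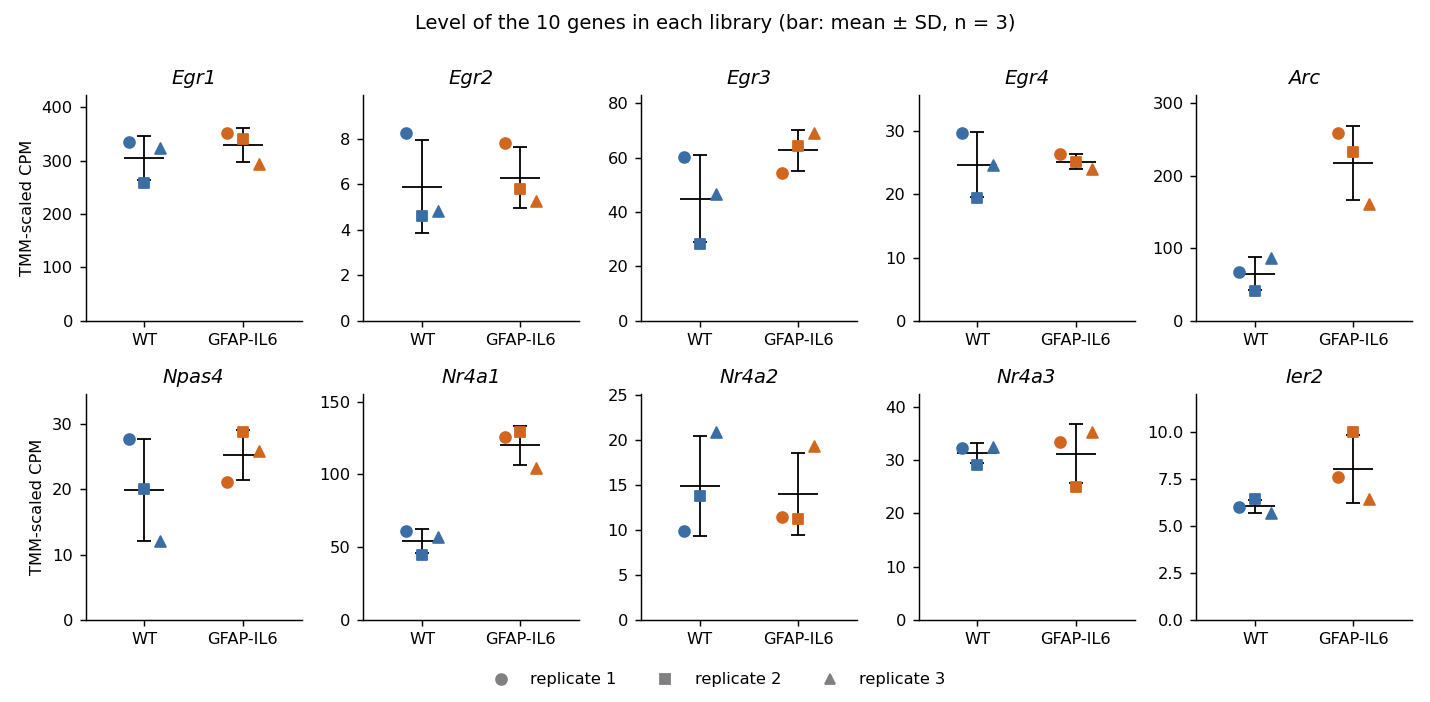
Level of each of the 10 genes in each of the 6 libraries, in CPM on a linear axis from 0 that is set for each gene, with the replicate number as the marker shape and bars for the mean ± SD (n = 3). The 3 GFAP-IL6 libraries lie well above the 3 WT libraries for Arc (at least 160 against at most 86.2 CPM) and Nr4a1 (at least 105 against at most 60.8 CPM), and narrowly above them for Ier2.

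Arc encodes a cytoskeleton-associated protein whose mRNA moves to dendrites and which takes part in the removal of AMPA receptors from synapses. It lies on chromosome 15 (GRCm38, 74669083 to 74672570, minus strand). Its level was 66.9, 41.3 and 86.2 CPM in WT replicates 1, 2 and 3 and 259, 232 and 160 CPM in GFAP-IL6 replicates 1, 2 and 3. The groups did not overlap, and the lowest GFAP-IL6 library was replicate 3. The means were 64.8 ± 22.5 CPM in WT and 217 ± 51.2 CPM in GFAP-IL6 (SD, n = 3 each). On the log2 scale the fitted difference was 1.75 ± 0.22 (SE), and edgeR's adjusted p was 0.000712. Within WT, replicate 2 was the lowest library.

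Nr4a1 encodes an orphan nuclear receptor, also known as Nur77, that is induced by activity in neurons and by inflammatory stimuli in myeloid cells. It also lies on chromosome 15 (101254269 to 101274795, plus strand). Its level was 60.8, 44.7 and 57.2 CPM in WT and 126, 129 and 105 CPM in GFAP-IL6. The groups did not overlap, and the gap between them was larger than the range within either. The log2 fold change was 1.15 ± 0.12, with an adjusted p of 0.000144 in edgeR's quasi-likelihood test. The SE was smaller than that of Arc, and so was the adjusted p, although the fold change was the lower.

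The other NR4A receptors did not pass the test. Nr4a2 (Nurr1), a receptor needed for dopaminergic neurons and also expressed in deep cortical cells, had 9.93, 13.8 and 20.9 CPM in WT and 11.5, 11.2 and 19.3 CPM in GFAP-IL6. In both groups the highest library was replicate 3, and the groups overlapped, with a log2 fold change of -0.10 (95% interval -0.66 to 0.45). Nr4a3 (Nor1) had 32.3, 29.1 and 32.4 CPM in WT and 33.3, 24.96 and 35.3 CPM in GFAP-IL6. The fitted log2 fold change was 0.01 (-0.26 to 0.27). Within each library, the ratio of Nr4a1 to Nr4a3 counts was 1.88, 1.54 and 1.77 in WT and 3.78, 5.18 and 2.97 in GFAP-IL6, so the ratio rose without overlap between the groups (log2 difference 1.17, exact two-sided permutation p of 0.1, where 3 against 3 libraries allow no smaller value).

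The promoters of the NR4A genes are shown because these genes share a known route of induction, through the factor CREB, while their levels differed here. CREB binds the cAMP response element TGACGTCA and, more weakly, its core TGACG. Of the 10 genes, 6 matched an entry of the RefSeq promoter table (GRCm38.p6). Egr1, Egr3, Arc and Ier2 had none. The capitals mark the core on either strand (TGACG, or CGTCA where it lies on the other strand), and each sequence is given 5′ to 3′ on the strand of its gene. The windows are chr15:101266596-101266845 on the plus strand for Nr4a1, chr2:57124004-57124253 on the minus strand for Nr4a2, and chr4:48045055-48045152 on the plus strand for Nr4a3. The first lies inside Nr4a1 as GENCODE annotates it, upstream of a RefSeq start, and the last is cut at the first annotated exon base.
Nr4a1: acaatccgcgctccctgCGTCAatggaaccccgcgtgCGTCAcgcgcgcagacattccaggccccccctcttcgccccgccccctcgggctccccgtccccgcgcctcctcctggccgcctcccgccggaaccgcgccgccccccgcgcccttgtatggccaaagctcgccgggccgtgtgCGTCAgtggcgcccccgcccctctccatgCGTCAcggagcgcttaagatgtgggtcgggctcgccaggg
Nr4a2: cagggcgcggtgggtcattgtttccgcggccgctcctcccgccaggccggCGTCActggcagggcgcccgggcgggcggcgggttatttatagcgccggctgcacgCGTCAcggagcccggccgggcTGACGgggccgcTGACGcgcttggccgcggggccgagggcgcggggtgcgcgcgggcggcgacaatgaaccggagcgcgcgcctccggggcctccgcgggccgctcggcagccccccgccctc
Nr4a3: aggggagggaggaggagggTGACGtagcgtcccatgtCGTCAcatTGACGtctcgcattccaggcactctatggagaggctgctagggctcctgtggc

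In the 250 bases before the start, Nr4a1, Nr4a2 and Nr4a3 each held 4 matches to the core, of which 3 fall in the stretch shown for Nr4a3. At least 1 match was found in 17.8% of the 32851 windows of the same length in the table, and 4 or more in 0.137% of them. Egr4 and Npas4 held 2 matches each, and Egr2 held 0 or 2 depending on the start. The full element TGACGTCA was in 1.55% of windows and in none of these 6 genes. The CArG box, bound by serum response factor, was in 1.47% of windows and in 4 of the 5 windows of Egr2. The EGR motif GCGTGGGCG (0.536% of windows), the NR4A motif AAAGGTCA (1.34%) and the STAT motif TTCNNNGAA (7.02%) were in none of the 6 genes. The core had the same number of matches in Nr4a1, which rose, as in Nr4a2 and Nr4a3, which did not pass the test. The part of these matches, or of CREB, in the levels was not tested.

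The EGR factors are zinc finger proteins that bind GC-rich sites, and Egr1 is the most widely used activity marker among them. None of the 4 passed the test. Egr1 (chromosome 18, 34859823 to 34864984) had 334, 257 and 323 CPM in WT and 352, 341 and 294 CPM in GFAP-IL6, which gave 0.11 on the log2 scale (95% interval -0.12 to 0.34). The lowest library was WT replicate 2, and the other WT libraries lay within the range of GFAP-IL6. Egr4 had 29.8, 19.5 and 24.7 CPM in WT and 26.4, 25.1 and 24.0 CPM in GFAP-IL6, with a log2 fold change of 0.04 (-0.26 to 0.34). Egr2, which is also a regulator of myelination in Schwann cells, was the lowest of the family per length, and its level was 5.90 ± 2.06 CPM in WT and 6.29 ± 1.34 CPM in GFAP-IL6 (SD, n = 3), from 44 to 95 counts in a library.

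Egr3, an activity-induced factor with the same zinc finger domain, differed most within the family. Its level was 60.1, 28.1 and 46.6 CPM in WT and 54.4, 64.4 and 69.2 CPM in GFAP-IL6. WT replicate 1 exceeded GFAP-IL6 replicate 1, so the groups overlapped, and WT replicate 2 was the lowest. The log2 fold change was 0.49 (0.05 to 0.93), with an adjusted p of 0.204 in edgeR's quasi-likelihood test. On leaving out each library in turn, its log2 fold change was between 0.23 (without WT replicate 2, adjusted p of 0.326 in edgeR) and 0.74 (without WT replicate 1, adjusted p of 0.0283). Egr3 was called in the latter fit and when the filter on low counts was left out (adjusted p of 0.00957 in edgeR).

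Npas4, a factor of the bHLH-PAS family, is among the genes most selective for neuronal activity and is induced by calcium entry. Its level was 27.7, 20.0 and 12.1 CPM in WT and 21.2, 28.8 and 25.8 CPM in GFAP-IL6. Its WT libraries had the widest spread of the 10 genes, with the highest 2.30 times the lowest, and its log2 fold change was 0.35 (-0.14 to 0.85). This value was between 0.083 (without WT replicate 3) and 0.64 (without WT replicate 1, adjusted p of 0.0584 in edgeR) on leaving out a library, and it was called in none of these fits. Ier2, a nuclear protein of the immediate early response, had 6.01, 6.44 and 5.71 CPM in WT and 7.62, 10.04 and 6.47 CPM in GFAP-IL6. Its groups did not overlap, but the closest libraries were 6.44 and 6.47 CPM, and the log2 fold change of 0.40 (0.00 to 0.79) had an adjusted p of 0.244 in edgeR's quasi-likelihood test. Arc, Nr4a1 and Ier2 were the 3 genes of 10 whose groups did not overlap, all in the higher direction, against 13.8% of all genes tested. With Egr3 they were also the 4 genes with an unadjusted p under 0.05, against 11.1% of all genes tested that reached it in that direction.

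**Figure D2:**
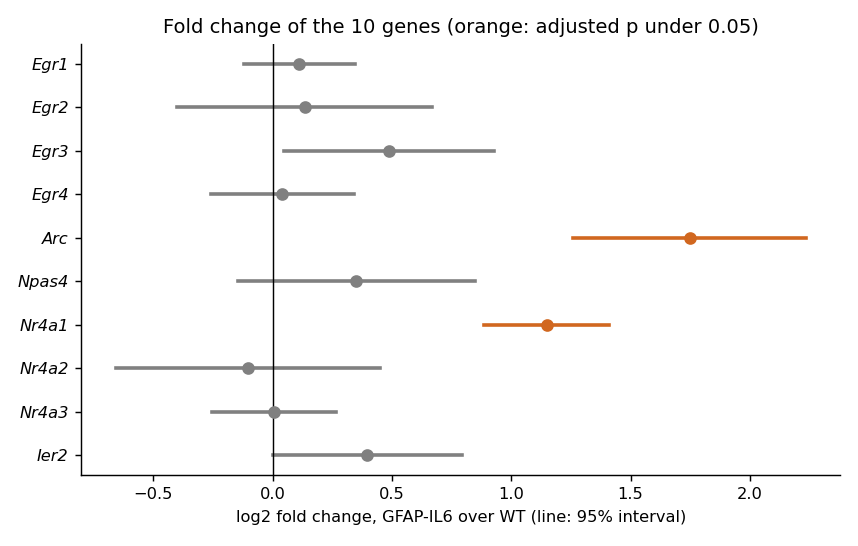
Log2 fold change of GFAP-IL6 over WT for the 10 genes, with points for the estimate and lines for the 95% interval from edgeR, orange where the adjusted p was under 0.05. The intervals of Arc (1.26 to 2.23) and Nr4a1 (0.89 to 1.41) lie apart from 0, and those of Egr1, Egr2, Egr4, Npas4, Nr4a2 and Nr4a3 include it.

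Levels were compared between genes as TPM, which divide by the gene length given in the table. In WT the order was Egr1, Egr3, Nr4a1, Arc, Egr4, Npas4, Nr4a3, Ier2, Nr4a2 and Egr2. Egr1 led with 189 ± 30.7 TPM, and Egr3 (88.7 ± 34.0 TPM), Nr4a1 (61.0 ± 11.1 TPM) and Arc (59.1 ± 21.2 TPM) were within their spread of each other (SD, n = 3). In GFAP-IL6, Arc stood at 207 ± 50.1 TPM, within the spread of Egr1 at 214 ± 21.4 TPM, and was followed by Nr4a1 at 141 ± 16.1 TPM and Egr3 at 129 ± 14.5 TPM. The order of the remaining 6 genes was the same in both groups. The length of Egr3 in the table was 1416 bases, against 4406 exon bases in GENCODE M21, so its place in this order depends on the gene model.

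The 10 genes also varied between mice of the same group. WT replicate 2 was the lowest WT library for 7 of the 10 genes, and its summed level of the 10 was 465 CPM, against 636 and 613 CPM in WT replicates 1 and 3. It also had the highest level of striatum markers and the lowest of excitatory neuron markers, and their part in these values was not tested. Among the GFAP-IL6 libraries, replicate 3 was the lowest for 6 of the 10 genes, with a summed level of 744 CPM against 900 and 873 CPM in replicates 1 and 2. On leaving out each library in turn, the log2 fold change of Arc was between 1.50 and 2.01 and that of Nr4a1 between 1.02 and 1.24, and both were called in all 6 of these fits. DESeq2 with its prior gave 0.70 for Arc, which was called there too.

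**Figure D3:**
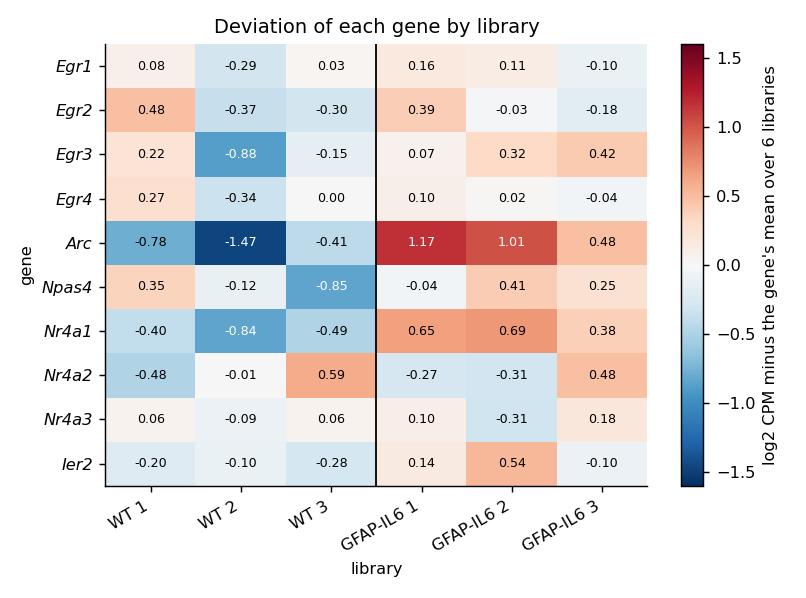
Deviation of each gene in each library from its own mean over the 6 libraries, in log2 CPM, with blue below and red above the mean. Arc and Nr4a1 are below their mean in all 3 WT libraries and above it in all 3 GFAP-IL6 libraries, whereas the column of WT replicate 2 is below the mean for all 10 genes.

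The genes whose levels most resembled the mean profile of the 10 genes over the 6 libraries were Myo1c, Prr14l, Crtc1, Nf1 and Cabin1 (Pearson r between 0.996 and 0.998, over 6 libraries that share their depth and dissection with the 10 genes). They were picked as the closest of 15341 genes over only 6 libraries, so so high an r cannot show a shared function. All 5 had their lowest level in WT replicate 2, and none passed the test. On deviations from the group means the closest were Map2k6, Hdlbp, RP24-372J8.3, Oprm1 and Arhgap35, also with none called. Among the 10 genes themselves, each of which contributes to the profile, r was highest for Egr3 (0.922), Nr4a1 (0.872) and Arc (0.862) and was below 0 for Nr4a2 (-0.29).

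Ratios between genes of the same library do not depend on the scaling of that library. These ratios, and that of Nr4a1 to Nr4a3 above, were chosen after the values were seen. They restate fold changes already given and are not separate support for them. The ratio of Nr4a1 to Egr1 counts was 0.182, 0.174 and 0.177 in WT and 0.358, 0.379 and 0.356 in GFAP-IL6. The 3 ratios within each group were nearly equal, although the level of each gene was not, and the groups differed by 1.04 on the log2 scale (exact two-sided permutation p of 0.1). Arc relative to each of the 8 genes that were not called was higher in GFAP-IL6 by 1.24 to 1.85 on the log2 scale, without overlap for 7 of the 8 and with overlap for Npas4. Nr4a1 relative to the same genes was higher by 0.61 to 1.22, without overlap for 5 of the 8 and with overlap for Egr3, Npas4 and Nr4a2.

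Ratios to marker genes were taken in the same way. Relative to the summed excitatory neuron markers, Arc was higher by 1.71 and Nr4a1 by 1.08 on the log2 scale, without overlap between the groups. Microglia markers summed to between 324 and 400 CPM in WT and between 560 and 638 CPM in GFAP-IL6, and endothelial markers to between 102 and 121 CPM in WT and between 172 and 204 CPM in GFAP-IL6. Relative to these sums, Arc was still higher without overlap, by 1.10 and 1.06 on the log2 scale. For Nr4a1 the differences were 0.47 and 0.43 and the groups overlapped (exact two-sided permutation p of 0.2 for each). The part of microglia and endothelial cells in the level of Nr4a1 was not tested.

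**Figure D4:**
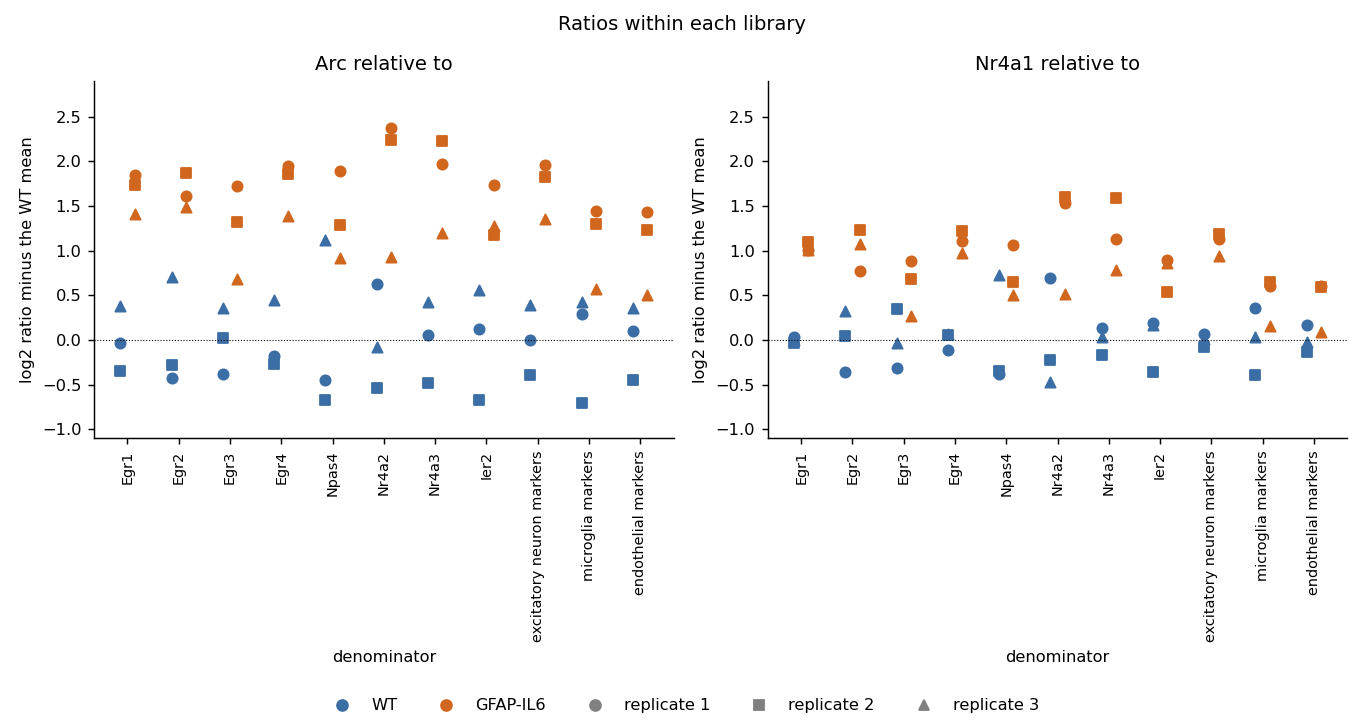
Log2 ratio of Arc (left) and Nr4a1 (right) to other genes or summed markers of the same library, minus the WT mean of that ratio, with a point per library and the replicate number as the marker shape. For Arc the 3 GFAP-IL6 points lie above the 3 WT points in every column except that of Npas4. For Nr4a1 they overlap in the columns of Egr3, Npas4, Nr4a2, microglia markers and endothelial markers.

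Other genes of the immediate early response were described from lists, as counts without a test of the list. AP-1 factors pair to form a transcription factor that is itself a product of the early response. Of 9 listed, 8 were tested and 1 rose, against 2.65% of all genes tested, and the median log2 fold change was 0.27. This was Junb, with 28.3, 14.3 and 19.1 CPM in WT and 46.7, 42.7 and 34.9 CPM in GFAP-IL6 (log2 fold change 1.03 ± 0.20, adjusted p of 0.011 in edgeR). Its groups did not overlap, and its call was lost without GFAP-IL6 replicate 1 (adjusted p of 0.0678 in edgeR) or replicate 2. Fos, the best known of these factors, had a log2 fold change of 0.56 with an adjusted p of 0.060 in edgeR, and Fosb 0.15.

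Of 19 other rapid response genes, 5 rose and 0 fell in edgeR's test, against 2.65% and 0.209% of all genes tested. At an unadjusted p under 0.05 in the same test, 11 of the 19 were higher and 0 lower, beside 11.1% and 9.37% of all genes tested. A log2 fold change above 0 was found for 17 of the 19, against 49.4% of all genes tested, and the median was 0.47. The 5 were Dusp1 (1.13), a phosphatase of MAP kinases, Klf2 (1.07) and Klf4 (0.92), zinc finger factors known from endothelium and myeloid cells, Trib1 (0.89), a pseudokinase, and Btg2 (0.79), an antiproliferative cofactor, all as log2 fold changes. Dusp1 had 15.2, 11.3 and 14.4 CPM in WT and 33.3, 32.9 and 22.8 CPM in GFAP-IL6. Klf2 had 4.01, 3.28 and 3.70 CPM in WT and 7.80, 7.13 and 8.04 CPM in GFAP-IL6. Microglia and endothelial markers were also higher in GFAP-IL6, and their part in these values was not tested. Within GFAP-IL6, replicate 3 had the highest sums of both marker lists (638 and 204 CPM). That library had the lowest Dusp1, Trib1, Btg2 and Nr4a1 of its group, the highest Klf2 and an intermediate Klf4. Whether these levels are linked to the markers was not tested. Dusp1, Trib1 and Klf2 were called in all 6 fits that left out a library, Btg2 in 4 and Klf4 in 2.

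Activity-regulated neuronal effectors had a median log2 fold change of 0.05, with 11 of 20 above 0, which is near the 49.4% of all genes tested. Of the 20, 0 rose and 1 fell in edgeR's test, where 2.65% of all genes tested rose and 0.209% fell. At an unadjusted p under 0.05, 5 of the 20 were higher and 3 lower, beside 11.1% and 9.37% of all genes tested. The gene that fell was Nrn1, a membrane protein that promotes neurite growth, by 0.34 on the log2 scale with an adjusted p of 0.033 in edgeR, and it was called in 2 of the 6 fits that left out a library. Counted per gene, without separating transcripts, Bdnf (-0.16) and Homer1 (-0.01), which activity induces like Arc, did not pass the test. Neither did Dusp5 (0.57) and Ptgs2 (0.44), among the 5 that were higher at an unadjusted p under 0.05. Rgs4 (-0.33) and Scg2 (-0.23), among the 3 that were lower, were not called either. Of 20 upstream factors and partners, such as CREB, SRF and their coactivators, 1 rose, which is near the 2.65% of all genes tested, and the median was 0.14. This was Elk3, a partner of serum response factor (log2 fold change 0.60, adjusted p of 0.032 in edgeR), which was not called by DESeq2 (adjusted p of 0.0587) and was called in 2 of the 6 fits that left out a library.

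**Figure D5:**
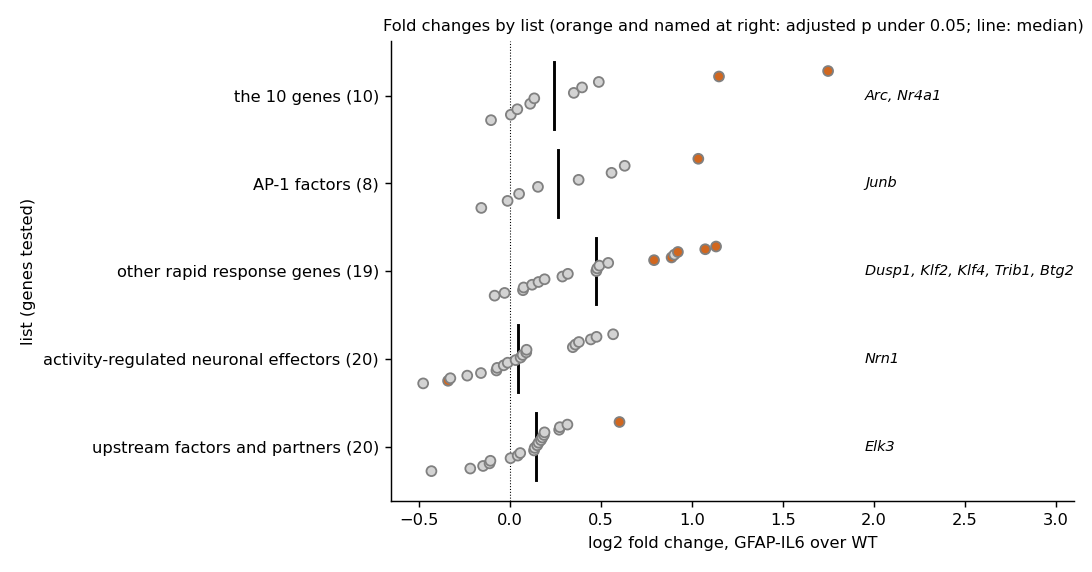
Log2 fold change of GFAP-IL6 over WT for each gene tested in the list of 10 genes and in the related lists, with a line at the median and the genes called named at the right. The medians were 0.24, 0.27, 0.47, 0.05 and 0.14 from top to bottom, and the genes called were all higher except Nrn1.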

How the data were processed

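RNA from frontal cortex of 3 GFAP-IL6 and 3 WT mice was analysed, with the titles as the source of group and replicate number. The deposited table held raw counts, as whole numbers per gene and library, together with a gene length in bases. According to the study's methods, STAR aligned the reads to mm10 (version 2.4 in the submitters' processing notes) and featureCounts assigned them to GENCODE genes. The processing notes name a human build, while the identifiers are those of mouse genes. Whether counting used strand is not given in the sources used here. The 10 genes shared 0 exon bases with another gene.

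The quasi-likelihood F-test of edgeR 4.0.16 (R 4.3.3) was used, with TMM scaling, filterByExpr and Benjamini-Hochberg adjustment over 15341 genes. The design held the group alone. SE and 95% intervals were derived from the F statistic. CPM are TMM-scaled, and TPM used the deposited length. Positions are from GENCODE M21 and promoters from RefSeq. DESeq2 1.42.0 and limma 3.58.1 were run as alternatives, with other scaling and filters, thinning of the counts, a replicate block and each library left out. The test was checked on simulated data. Libraries held 7559524 to 16877001 counts, and no pair was the same within sampling noise (chi-square per degree of freedom between 2.23 and 20.1). Each library was taken as a separate mouse, as the study names 3 WT and 3 GFAP-IL6 mice. The titles number the libraries within each group. The p-values of edgeR set the difference between the groups against the spread between these libraries.

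The 10 genes and the related lists were chosen with earlier results of these data known. All 10 are named, together with the called genes of each related list and the 5 genes closest to the mean profile of the 10. Fos, Fosb, Bdnf, Homer1, Dusp5, Ptgs2, Rgs4 and Scg2 were named in addition, after their values were seen.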

Additional observations from a re-analysis of the deposited data

How the results depend on the processing

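Arc and Nr4a1 were called under all 9 other settings and in all 6 fits that left out a library. The log2 fold change of Arc was between 0.70 (DESeq2 with its prior) and 1.78 under the other settings, and that of Nr4a1 between 0.96 and 1.17. The number of the 10 genes called was 2 under each setting except without the filter on low counts, where it was 3, and between 2 and 3 on leaving out a library. The number of genes called among all tested, 439, became 1154 without the filter on low counts, and it was between 187 (without GFAP-IL6 replicate 3) and 1061 (without WT replicate 1) on leaving out a library. With the replicate number as a block it was 750. Whether the numbers pair the samples was not settled. The correlations of deviations were 0.123, 0.0192 and 0.0505 for the 3 numbers, and 4 of 6 libraries were closest to their own number. With the replicate block, 3 AP-1 factors and 4 effectors were called, and Nr4a3 had a log2 fold change of -0.010. With DESeq2, 2 AP-1 factors, 2 effectors and 0 upstream factors were called, and Nr4a3 had -0.0021, or -0.0017 with the prior. With library totals alone, 2 AP-1 factors and 2 effectors were called. Without the filter, 3 AP-1 factors, 8 rapid response genes and 6 effectors were called. After thinning to the smallest library, 3 rapid response genes and 0 upstream factors were called, and Egr2 had -0.053. On leaving out a library, the counts called ranged from 0 to 2 for AP-1 factors, 3 to 6 for rapid response genes, 0 to 2 for effectors and 0 to 2 for upstream factors. The same fits gave log2 fold changes of -0.072 to 0.43 for Egr2, -0.11 to 0.19 for Egr4, -0.40 to 0.22 for Nr4a2 and -0.084 to 0.13 for Nr4a3, none of them called. Egr1 was between 0.0019 (without WT replicate 2) and 0.19 (without GFAP-IL6 replicate 3), and Ier2 between 0.22 (without GFAP-IL6 replicate 2) and 0.53 (without GFAP-IL6 replicate 3), also not called. Where a count or sign moved, the cause was not tested. With 3 libraries a group, the 95% intervals of several genes not called were wide. Those of Egr2, Egr3, Npas4 and Ier2 reached up to 0.67, 0.93, 0.85 and 0.79 on the log2 scale. That of Nr4a2 ran from -0.66 to 0.45.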
